A study of Bos taurus with 20 samples.

Results

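Genes of the BCL2 family were followed through the cells of the bovine ovarian follicle and through the first hours of cumulus maturation. Of 10 genes listed, 8 had probes under their own gene name, and BID was on the array as BID1, which the probe description and accession give as BID. BCL2L10 matched no probe by gene name, description or accession and was not analysed here. The 9 genes measured, of 22562 genes and transcripts on the array, had 28 spots with 19 distinct probe sequences. The study hybridized 20 one-colour arrays of cow RNA, 4 biological replicates in each of 5 groups, to compare the transcriptomes of follicular cells. Theca cells (TH) were scraped from the walls of immature antral follicles of 3 to 6 mm, and granulosa cells (GC), cumulus cells (CC) and immature oocytes were collected from follicles of that kind, all from ovaries obtained after slaughter. In a further group the CC had undergone in vitro maturation (IVM) for 4 h. Genotype, breed and age of the cows, and the number of animals or follicles behind each sample, are not given in the sources used here, and no group carried an allele or agent other than the IVM culture.

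Proteins of the BCL2 family decide at the outer membrane of the mitochondrion whether a cell enters the intrinsic pathway of apoptosis. BAX and BAK1 are the effectors that open pores in that membrane, BCL2, BCL2L1 (BCL-XL) and MCL1 hold them in check, and the BH3-only proteins BCL2L11 (BIM), BID, BAD and BMF bind the restraining proteins or the effectors. Released cytochrome c then drives the apoptosome and the caspases. In the ovary this pathway is known for the loss of granulosa cells in atresia of the follicle and for the loss of oocytes.

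The probes are shown where the values below turn on them. They are 60-base oligonucleotides, written 5' to 3' as on the array, and each of those printed holds an open reading frame over its whole length. The BAX and BAK1 probes are given because both effectors were dim, with the longest run shared by the first probe of each, 13 bases, in capitals. That run belongs to the codons of the BH1 region, which the effectors and the restraining proteins have in common. In the second BAK1 probe, capitals mark the stop codon at its end.
BAX probe 1: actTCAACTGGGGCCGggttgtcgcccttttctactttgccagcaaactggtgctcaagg
BAX probe 2: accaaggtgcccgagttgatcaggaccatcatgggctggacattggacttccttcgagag
BAK1 probe 1: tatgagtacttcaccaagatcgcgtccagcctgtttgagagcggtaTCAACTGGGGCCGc
BAK1 probe 2: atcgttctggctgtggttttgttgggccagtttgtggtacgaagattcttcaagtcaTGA

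The BCL2, BID and BMF probes below, in lower case throughout, are given because the probes of these genes differed in direction or size in at least 1 comparison. BCL2 probe 1 and BID probe 3, which went against the other probes of their genes, hold no frame open over their whole length and are not printed.
BCL2 probe 2: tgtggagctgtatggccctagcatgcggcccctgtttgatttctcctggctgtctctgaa
BID probe 1: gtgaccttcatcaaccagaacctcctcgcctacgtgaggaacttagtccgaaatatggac
BMF probe 1: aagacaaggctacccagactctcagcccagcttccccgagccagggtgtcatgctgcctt
BMF probe 2: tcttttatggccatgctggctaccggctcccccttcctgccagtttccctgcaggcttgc

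On the UMD 3.1 assembly used by the array, the transcripts lie at chr24:61914152-62105526 (BCL2), chr13:61766806-61817383 (BCL2L1), chr3:20172325-20176960 (MCL1), chr18:55985202-55989378 (BAX) and chr23:7655892-7658885 (BAK1). The BH3-only genes lie at chr11:1156954-1199792 (BCL2L11), chr29:43190201-43201983 (BAD) and chr10:35856697-35871287 (BMF). The array names 3 BID transcripts, 1 at chr5:109639251-109656755 and the others at chr5:109640172-109656755.

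Between 49.3% and 68.8% of the probes of an array were well above background, with both extremes among the oocyte arrays, and no spot was saturated. The gene expression value is the log2 processed intensity with the 75th percentile of its array set to 0, and a difference of 1 is a doubling. The arrays of TH, GC, CC and oocyte were on slides 1 and 2, while all arrays of CC after IVM were on slide 3, so that IVM and slide cannot be told apart. The labels were checked with marker genes, each list taken as log2 of its summed linear values. The 5 theca markers lay at 9.17 to 9.70 in TH and at 6.84 or lower elsewhere, and the 6 oocyte markers at 7.95 to 8.37 in the oocyte and at 1.59 or lower elsewhere. The 6 granulosa and cumulus markers were at 8.46 or higher in GC, CC and CC after IVM and at 8.07 or lower in TH and oocyte. FOXL2, a granulosa transcription factor, was at background on all arrays of CC after IVM and of the oocyte. CYP17A1, the theca enzyme of androgen synthesis, was at background on all arrays of CC, CC after IVM and oocyte. As the samples are bulk RNA, fewer cells of a type and less RNA per cell cannot be told apart.

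The levels of the family differed among the cell types for 6 of 9 genes by the limma F-test across the 4 cell types before IVM. These were BCL2, BCL2L1, MCL1, BCL2L11, BAD and BMF, and their share of 66.7% stood beside 71.3% of all genes tested. The methods' analysis of variance also called 6. Over the 6 pairs of cell types, 27 of 54 gene by pair tests were called, against 44.2% over all genes. No pair was called for the effectors BAX and BAK1 or for BID, and none of their pairs had an unadjusted p under 0.05 in limma. Values of the deposited log2 table, which keeps the background in, called 3 pairs for BAK1 and 1 for BID. The brightest BID probe called 3 pairs, with the oocyte lower in each, and BAX was called higher in the oocyte than in TH within slide 1 (1.06, adjusted p = 0.0435) and without TH replicate 4 (0.76, adjusted p = 0.0442).

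**Figure D1:**
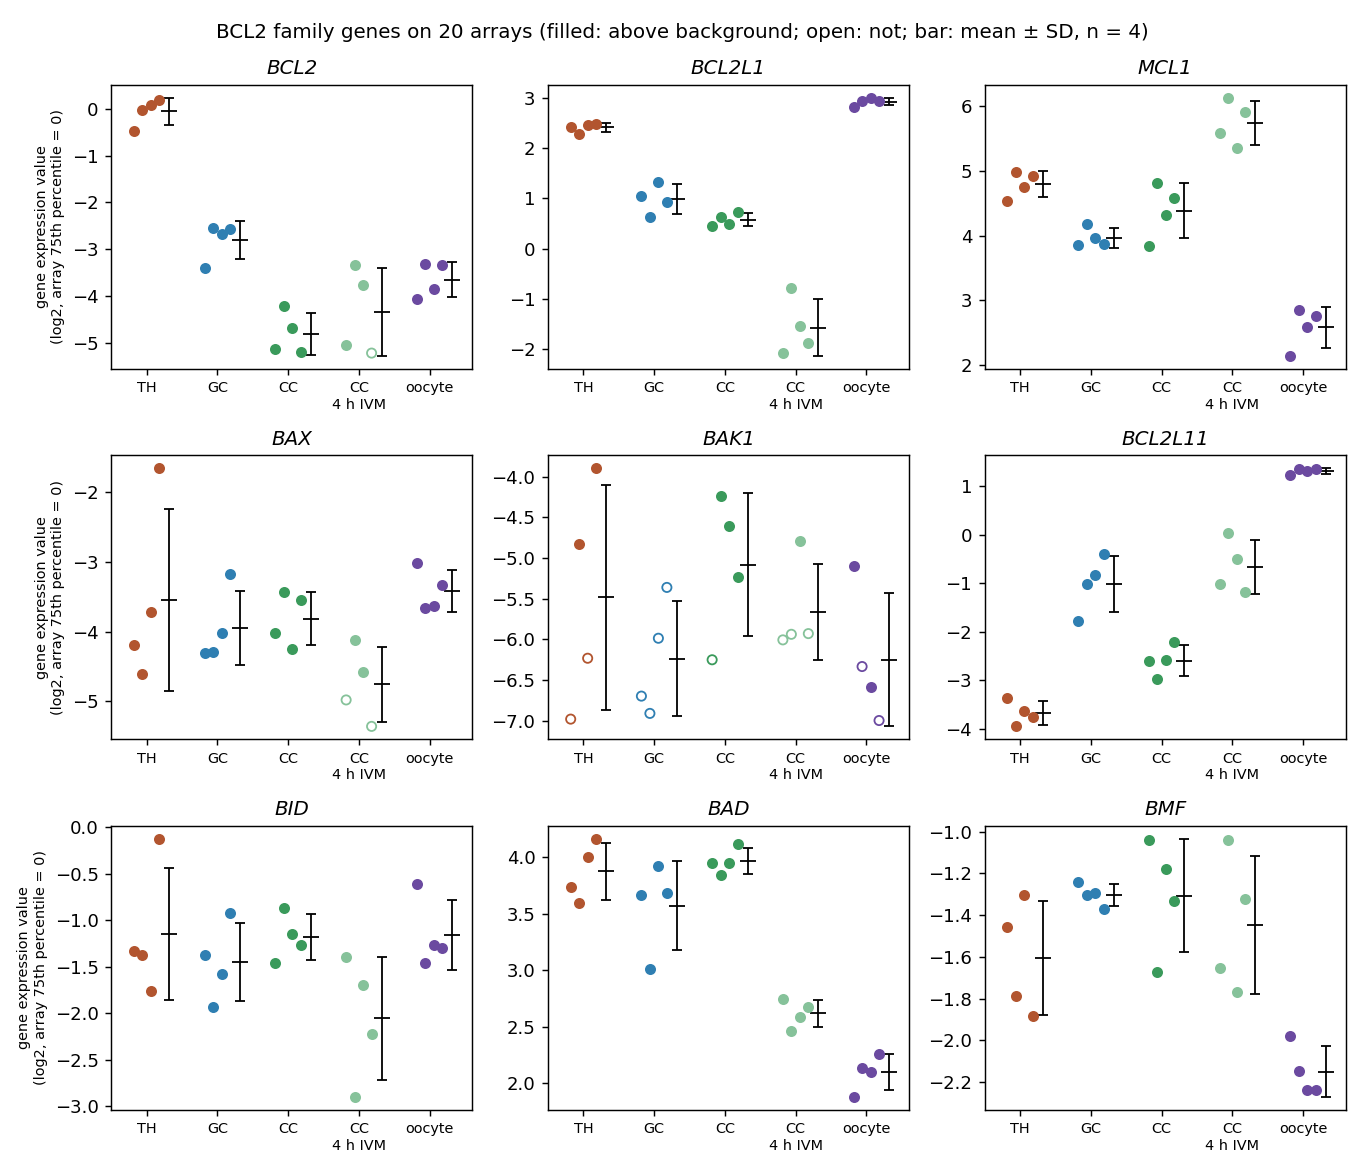
Gene expression value (log2, 75th percentile of each array at 0) of the 9 BCL2 family genes on 20 arrays, 1 panel a gene and 1 point an array, with the mean ± SD of the 4 replicates beside each group (open points were not well above background). BCL2 is highest in TH, BCL2L1 and BCL2L11 are highest in the oocyte, and the oocyte holds the lowest values of MCL1 and BAD.

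BCL2, the founding member that restrains BAX and BAK1, was highest in TH among these cells. By at least 1 of its probes, it was also well above background on all GC, CC and oocyte arrays, though probe 1 was so on only 2 of 4 CC arrays. Its gene expression values were -0.47, -0.04, 0.08 and 0.19 on the TH arrays, -3.40, -2.54, -2.68 and -2.57 on those of GC, -4.07, -3.32, -3.86 and -3.34 in the oocyte, and -5.13, -4.22, -4.68 and -5.20 in CC. In these gene values no other group overlapped TH, and CC lay below GC and the oocyte without overlap, while GC and the oocyte overlapped. On BCL2 probe 2 alone CC did overlap them. There CC replicate 2 was at -2.98, above the oocyte arrays at -4.17 to -3.48 and above GC replicate 1 at -3.41. The order TH, GC, oocyte, CC had a difference at each step by limma. TH was above GC by 2.74 (SE 0.27, adjusted p = 2.03e-06), GC above the oocyte by 0.85 (SE 0.27, adjusted p = 0.0115) and the oocyte above CC by 1.16 (SE 0.27, adjusted p = 0.00129). In CC the values lay near background, as the lowest signals well above it on those arrays were at -5.73 to -5.26. The size of the steps down to CC rests on these values. The step from GC to the oocyte lost its call when arrays were centred on their median (adjusted p = 0.0546), with the deposited log2 table (adjusted p = 0.108) and within slide 1 (adjusted p = 0.279). The step from the oocyte to CC lost it on the brightest probe of the gene (adjusted p = 0.233) and within slide 1 (adjusted p = 0.149), where the step of 1.70 from GC to CC was not called either (adjusted p = 0.198).

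By their sums, endothelial and leukocyte markers were high in TH as BCL2 was, though some of these genes were also high elsewhere. The 2 red cell markers were not highest in TH. They summed to between 3.55 and 4.56 in TH, 3.85 and 4.86 in GC, 4.63 and 5.58 in CC and 2.94 and 3.16 in the oocyte. The 3 endothelial markers summed to between 0.43 and 2.13 in TH, against -3.15 or lower in GC and CC and -1.23 to 1.01 in the oocyte, with PECAM1 at a mean of 0.25 in TH and at background on all CC arrays. The oocyte sum came from VWF, at a mean of -0.59, while PECAM1 was at -7.53 and CDH5 at -8.05 there. The 4 leukocyte markers summed to between -0.14 and 0.88 in TH, -2.78 and -0.15 in GC, -2.99 and -1.28 in CC, -0.14 and 0.24 in the oocyte and -0.45 and 0.92 in CC after IVM, and PTPRC, their pan-leukocyte gene, was well above background on 4 of 4 TH arrays and on no other array. In the oocyte the leukocyte sum came from CD3E, at a mean of -0.07, with PTPRC at -7.79, CD14 at -6.06 and CD68 at -6.01. The theca markers followed the same order among somatic cells, at 4.90 to 6.84 in GC and 4.66 to 5.03 in CC. Their part in the BCL2 result was not tested.

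BCL2L1, which codes for BCL-XL, had its highest level in the oocyte and its next in TH. The values were 2.83, 2.94, 3.00 and 2.93 in the oocyte, 2.41, 2.28, 2.46 and 2.49 in TH, 1.06, 0.63, 1.33 and 0.92 in GC, and 0.45, 0.63, 0.50 and 0.73 in CC. The oocyte arrays lay above every somatic array, and the TH arrays above every GC and CC array. The oocyte exceeded TH by 0.51 (SE 0.15, limma adjusted p = 0.00769), TH exceeded GC by 1.43 (SE 0.15, adjusted p = 4.64e-06), and GC and CC differed by 0.41 (95% interval of the difference 0.08 to 0.73, adjusted p = 0.119). The small step from the oocyte to TH depended on the scaling. It was 0.24 after quantile normalization (adjusted p = 0.139), 0.20 with the percentile taken over probes detected on all arrays (adjusted p = 0.189) and 0.24 with normexp background correction before quantile normalization (adjusted p = 0.0843), and it was also not called within either slide or with all 20 arrays in 1 fit. In those 3 scalings GC was called above CC, with adjusted p between 0.0207 and 0.0458, as it was without GC replicate 2 (adjusted p = 0.0380).

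MCL1, a short-lived restraining protein, was high in all somatic cells and lowest in the oocyte. Its values were 4.54, 4.98, 4.75 and 4.92 in TH, 3.84, 4.81, 4.31 and 4.58 in CC, 3.85, 4.18, 3.96 and 3.86 in GC, and 2.14, 2.86, 2.59 and 2.76 in the oocyte. All oocyte arrays were below all somatic arrays. The order TH, CC, GC, oocyte held a limma difference only at its last step, where GC was above the oocyte by 1.38 (SE 0.21, adjusted p = 3.30e-05). TH and CC differed by 0.41 (adjusted p = 0.174), a step that was called with the percentile over probes detected on all arrays (0.62, adjusted p = 0.0349) and with the replicate block (adjusted p = 0.0494), and CC and GC by 0.42 (adjusted p = 0.279), whereas TH exceeded GC by 0.83 (SE 0.21, adjusted p = 0.00862). Within slide 1, TH exceeded GC by 0.74 with an adjusted p of 0.398.

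The effectors BAX and BAK1 were dim in every group. BAX was at -3.02, -3.67, -3.63 and -3.33 on the oocyte arrays, -4.19, -4.61, -3.72 and -1.66 on those of TH, -4.02, -3.44, -4.25 and -3.55 in CC, and -4.30, -4.29, -4.02 and -3.18 in GC. The ranges of all 4 cell types overlapped, and TH replicate 4 stood above the other 15 arrays. The difference between the oocyte and the somatic mean was 0.35 (95% interval -0.50 to 1.20, limma adjusted p = 0.417). Without TH replicate 4 it was 0.56 (adjusted p = 0.0468).

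BAK1 was well above background on 2 TH arrays, 3 CC arrays, 1 array of CC after IVM, 2 oocyte arrays and none of GC. Its group means were -5.08 ± 0.88 in CC, -5.48 ± 1.39 in TH, -6.24 ± 0.71 in GC and -6.25 ± 0.82 in the oocyte (SD, n = 4). All groups overlapped, and with the signal of the lowest probe above background in place of the GC values, no group gave a fold above 1. The oocyte minus the somatic mean was -0.65 (95% interval -1.76 to 0.46, limma adjusted p = 0.255). The sign of that value differed between slides, at 0.27 within slide 1 (adjusted p = 0.830) and -1.57 within slide 2 (adjusted p = 0.0419). With the deposited log2 table it was -0.79 and was called (adjusted p = 0.000311).

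BCL2L11, the gene of the BH3-only protein BIM, had the widest range of the BH3-only genes. Its values were 1.23, 1.35, 1.31 and 1.35 in the oocyte, -1.77, -1.02, -0.84 and -0.39 in GC, -2.60, -2.97, -2.58 and -2.21 in CC, and -3.36, -3.95, -3.62 and -3.76 in TH. The 4 cell types did not overlap at any point of this order. By limma the oocyte was above GC by 2.31 (SE 0.25, adjusted p = 5.76e-07), GC above CC by 1.59 (SE 0.25, adjusted p = 0.00077) and CC above TH by 1.08 (SE 0.25, adjusted p = 0.00313). From TH to the oocyte the difference was 4.98, a 31.6-fold higher level. The steps from GC to CC and from CC to TH were 1.39 and 0.86 within slide 1 and were not called there (adjusted p = 0.169 and 0.195).

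BID, the BH3-only protein that caspase 8 cleaves to link death receptors to the mitochondrion, showed no difference in its gene value. Group means were -1.15 ± 0.71 for TH, -1.16 ± 0.37 for the oocyte, -1.18 ± 0.25 for CC and -1.45 ± 0.42 for GC (SD, n = 4), and all groups overlapped. The 3 probes of the gene, however, went opposite ways. Against the somatic mean, probe 1, which the design ties to 2 of the 3 transcripts, stood in the oocyte at -0.57 (SE 0.22, limma adjusted p = 0.0353 over all probes), and probe 2, tied to the remaining transcript, at -0.84 (SE 0.13, adjusted p = 2.40e-05). Probe 3, tied to all 3 transcripts, was higher by 0.91 (SE 0.37, adjusted p = 0.0418). As 3 of 6 BID spots carried probe 3, the median over spots lay between the probes, and the gene value of BID is uncertain. Its difference between the oocyte and the somatic mean was 0.10 (95% interval -0.45 to 0.66), but -0.84 on the brightest probe (adjusted p = 1.10e-05) and 0.48 in the deposited log2 table (adjusted p = 0.0486).

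BAD, a BH3-only protein that phosphorylation by survival kinases holds inactive, showed no called difference among somatic cells and was lower in the oocyte. The values were 3.95, 3.84, 3.95 and 4.12 in CC, 3.74, 3.59, 4.00 and 4.16 in TH, 3.66, 3.01, 3.92 and 3.68 in GC, and 1.88, 2.14, 2.10 and 2.26 in the oocyte. The somatic ranges overlapped, and each oocyte array was below all of them. GC exceeded the oocyte by 1.48 (SE 0.19, limma adjusted p = 5.72e-06), while CC and TH differed by 0.09 (95% interval -0.33 to 0.50) and CC and GC by 0.39 (95% interval -0.02 to 0.81). GC stood from TH at -0.30 (95% interval -0.72 to 0.11), which was called after normexp and quantile normalization (-0.38, adjusted p = 0.0492).

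BMF, a BH3-only protein tied to the cytoskeleton in healthy cells, was lower in the oocyte by a small step. Its values were -1.24, -1.30, -1.29 and -1.37 in GC, -1.04, -1.67, -1.18 and -1.33 in CC, -1.46, -1.79, -1.30 and -1.88 in TH, and -1.98, -2.15, -2.24 and -2.24 in the oocyte. By gene value the oocyte arrays lay below all somatic arrays, the nearest being at -1.98 in the oocyte and -1.88 in TH. On BMF probe 2, the brighter probe, they overlapped. There oocyte replicate 1 was at 0.16, above TH replicate 2 at 0.02, GC replicate 2 at 0.12 and CC replicate 2 at -0.15. TH exceeded the oocyte by 0.54 (SE 0.17, limma adjusted p = 0.0101), and GC and CC exceeded it by 0.85 (adjusted p = 0.000353) and 0.84 (adjusted p = 0.000365). The step from TH to the oocyte was not called after centring on the array median (0.31, adjusted p = 0.168), with the deposited log2 table (0.10, adjusted p = 0.447) or within either slide. The GC step was also lost with that table (adjusted p = 0.0903), the CC step on the brightest probe (adjusted p = 0.0728), and both within slide 1. BMF probe 1 was lower in the oocyte by -1.0 (SE 0.15) and probe 2 by -0.49 (SE 0.17), both called.

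In the oocyte against the somatic mean, which weighs TH, GC and CC equally, the restraining genes and the BH3-only genes each split in direction, and the effectors were not called. Among the restraining genes, BCL2L1 was 3.03-fold higher in the oocyte, and MCL1 was 3.47-fold and BCL2 2.13-fold lower. Among the BH3-only genes, BCL2L11 was 13.3-fold higher, and BAD was 3.27-fold and BMF 1.68-fold lower. BID was not called either. By limma 2 of 9 genes were called higher (22.2%, against 32.9% of all genes) and 4 lower (44.4%, against 38.3%). By gene value the oocyte arrays were all above the 12 somatic arrays for 2 genes (22.2%, against 25.3% of all genes) and all below for 3 (33.3%, against 20.6%). BMF was 1 of these 3, though it overlapped on its probe 2. The shares are those of 9 genes and were given no test.

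On the log2 scale, BCL2L11 was higher by 3.73 (SE 0.20, limma adjusted p = 1.19e-10) and BCL2L1 by 1.60 (SE 0.12, adjusted p = 9.51e-09). MCL1 fell by 1.79 (SE 0.17, adjusted p = 1.45e-07) and BAD by 1.71 (SE 0.16, adjusted p = 8.20e-08) from the somatic mean to the oocyte. BMF fell by 0.74 (SE 0.14, adjusted p = 0.000158) and BCL2 by 1.09 (SE 0.22, adjusted p = 0.000352). The BCL2 difference averaged a high TH and a low CC, and the oocyte itself was above CC. The median of all genes in this comparison was -0.52, and it moved to -0.01 after quantile normalization. Relative to that median of -0.52, BCL2L11 stood at 4.25, BCL2L1 at 2.12, MCL1 at -1.28, BAD at -1.19, BCL2 at -0.58 and BMF at -0.23. These distances depend on the dim genes in the median. It was 0.12 over detected genes and -0.05 over the 17442 genes left by the filter on dim genes. From either of those medians, BMF, BCL2, BAD and MCL1 lie further down than from -0.52. After quantile normalization itself, BMF was at -0.66 (adjusted p = 0.000286) and BCL2 at -0.98 (adjusted p = 0.00138). With the deposited log2 table, which keeps the background, MCL1 was at -1.16, BAD at -1.05 and BMF at -0.24, and with normexp, which adds an offset, and quantile normalization BMF was at -0.44, all called. Within slides 1 and 2, BCL2L11 was at 3.90 and 3.56, BCL2L1 at 1.64 and 1.56, MCL1 at -1.87 and -1.72, and BAD at -1.63 and -1.79, all called. BCL2 and BMF were called within slide 2 (-1.12 and -0.84) and not within slide 1 (-1.06 and -0.65, adjusted p = 0.0608 and 0.0650).

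**Figure D2:**
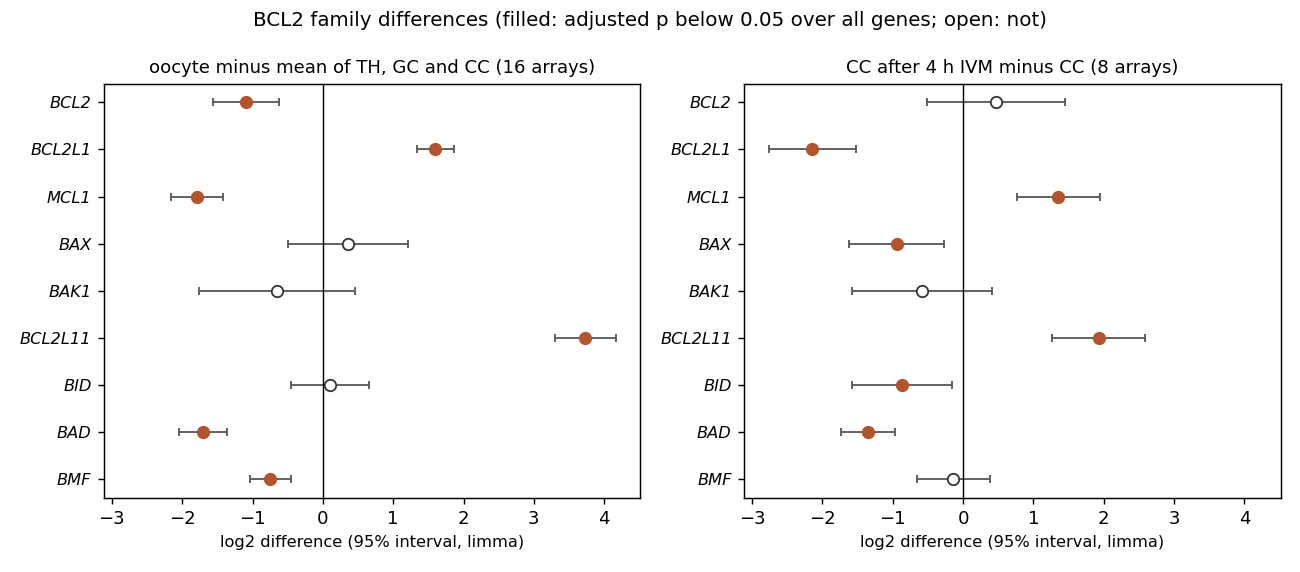
Log2 differences of the 9 genes with 95% intervals from limma, the oocyte minus the somatic mean (16 arrays, left) and CC after 4 h of IVM minus CC (8 arrays, right), filled where the adjusted p over all genes was below 0.05. BCL2L11 lies to the right in both panels, at 3.73 and 1.93, and BAD to the left, at -1.71 and -1.35, while BCL2L1 and MCL1 lie on opposite sides in each.

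After 4 h of IVM the CC held less BCL2L1 and BAD transcript and more BCL2L11 and MCL1 than before. BCL2L1 was at 0.45, 0.63, 0.50 and 0.73 before and at -2.07, -0.79, -1.54 and -1.87 after IVM, which was 4.42-fold lower. BAD was at 3.95, 3.84, 3.95 and 4.12 before and at 2.75, 2.46, 2.59 and 2.67 after IVM, 2.54-fold lower. For both genes every array after IVM was below every array before it. BCL2L11 went from -2.60, -2.97, -2.58 and -2.21 to -1.01, 0.04, -0.50 and -1.18, 3.81-fold higher. MCL1 went from 3.84, 4.81, 4.31 and 4.58 to 5.58, 6.12, 5.35 and 5.90, 2.56-fold higher. For these also the groups did not overlap, in the upward direction.

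By limma BCL2L1 fell by 2.14 (SE 0.28, adjusted p = 0.000343) and BAD by 1.35 (SE 0.17, adjusted p = 0.000321) on the log2 scale, while BCL2L11 rose by 1.93 (SE 0.29, adjusted p = 0.000918) and MCL1 by 1.36 (SE 0.26, adjusted p = 0.0037). These calls held in all 21 alternative settings run for this comparison, although MCL1 was at 0.91 after quantile normalization, 0.87 after normexp and quantile normalization together and 0.86 with the deposited log2 table, where BCL2L11 was at 1.21. BAX fell by 0.94 (SE 0.30, adjusted p = 0.0298) and BID by 0.87 (SE 0.32, adjusted p = 0.0477), with overlapping arrays in both. The BAX call was lost without CC replicate 1 (adjusted p = 0.0558), CC replicate 2 (0.0776), CC replicate 4 (0.0718), IVM replicate 1 (0.0671) or IVM replicate 4 (0.0742), with the deposited log2 table (-0.26, adjusted p = 0.0900), with all 20 arrays in 1 fit (0.120) and against the CC arrays of slide 1 (0.103) or slide 2 (0.155) alone, and BAX was well above background on only 2 arrays after IVM. The BID call was lost without CC replicate 1 (adjusted p = 0.0680), 2 (0.112), 3 (0.0935) or 4 (0.0770), without IVM replicate 2 (0.0822), where the value was -0.59, or without IVM replicate 4 (0.101), with the replicate block (0.0817), after quantile normalization (0.0879), with the array median (0.0593), with all 20 arrays in 1 fit (0.0584) and against the CC arrays of slide 1 (0.159) or slide 2 (0.174) alone. BCL2 was at 0.47 (95% interval -0.51 to 1.45), BAK1 at -0.59 (-1.58 to 0.41) and BMF at -0.14 (-0.66 to 0.38), none called.

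In all 4 of 9 genes were called lower after IVM (44.4%, against 15.6% of all genes), among them BAX and BID, and 2 higher (22.2%, against 30.3%). Arrays after IVM were all below the CC arrays for 2 genes (22.2%, against 14.9%) and all above for 2 (22.2%, against 29.1%). The median of all genes was 0.37 and that of the 9 genes -0.59, and quantile normalization moved the former to 0.01. Relative to 0.37, BCL2L1 stood at -2.51, BAD at -1.71, BCL2L11 at 1.56 and MCL1 at 0.99. These distances also depend on dim genes, as the median was -0.006 over detected genes and 0.14 with the filter on dim genes. With only the CC arrays of slide 1 or of slide 2 on the other side, BCL2L1 was at -2.11 and -2.18, BAD at -1.28 and -1.42, BCL2L11 at 2.12 and 1.73, and MCL1 at 1.42 and 1.29, all called, but the arrays after IVM remained on their own slide.

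Other markers moved with IVM. The 6 oocyte markers summed to between -0.83 and 1.59 in CC and between -2.64 and -0.84 after IVM, with ZP4 at means of -1.04 and -4.48. The 4 leukocyte markers summed to between -2.99 and -1.28 in CC and between -0.45 and 0.92 after IVM, though PTPRC was at background on all 8 of these arrays. HAS2, the hyaluronan synthase of cumulus expansion, was at a mean of -5.56 in CC and 2.20 after IVM, and TNFAIP6 at -0.01 and 2.02, while the other expansion markers were level, PTGS2 at -2.48 and -2.52 and PTX3 at -0.66 and -0.77. The 3 endothelial markers summed to between -5.63 and -4.86 in CC and between -4.34 and -3.12 after IVM, but these sums rest on values near background. CDH5 was at background on all 8 arrays, PECAM1 was well above it on 1 array after IVM only, and VWF on 1 CC array and 3 after IVM. The lowest signals well above background were at -5.73 to -5.26 in CC and at -5.12 to -4.59 after IVM. The part of other cells in the BCL2L1, BAD, BCL2L11 and MCL1 results was not tested.

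The probes of a gene mostly moved together. In the oocyte comparison 8 of 9 genes had all probes on 1 side of 0, the exception being BID, and 15 of 19 probes were called over all probes. After IVM 8 of 9 genes had all probes on 1 side, the exception being BCL2, and 13 probes were called. Of all genes, 32.9% were called higher and 38.3% lower in the oocyte comparison, and 30.3% and 15.6% after IVM. The matching shares over all probes of the array were not computed, so these probe counts have no reference of their own. BCL2 probe 1 was higher after IVM by 1.19 (SE 0.43, limma adjusted p = 0.0481) and BCL2 probe 2 stood at -0.25 (SE 0.65, adjusted p = 0.773). BCL2 probe 1 was well above background on 2 of 4 CC arrays. BAK1 probe 1 was at -0.04 (SE 0.50) and probe 2 at -1.13 (SE 0.50) after IVM, neither called.

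**Figure D3:**
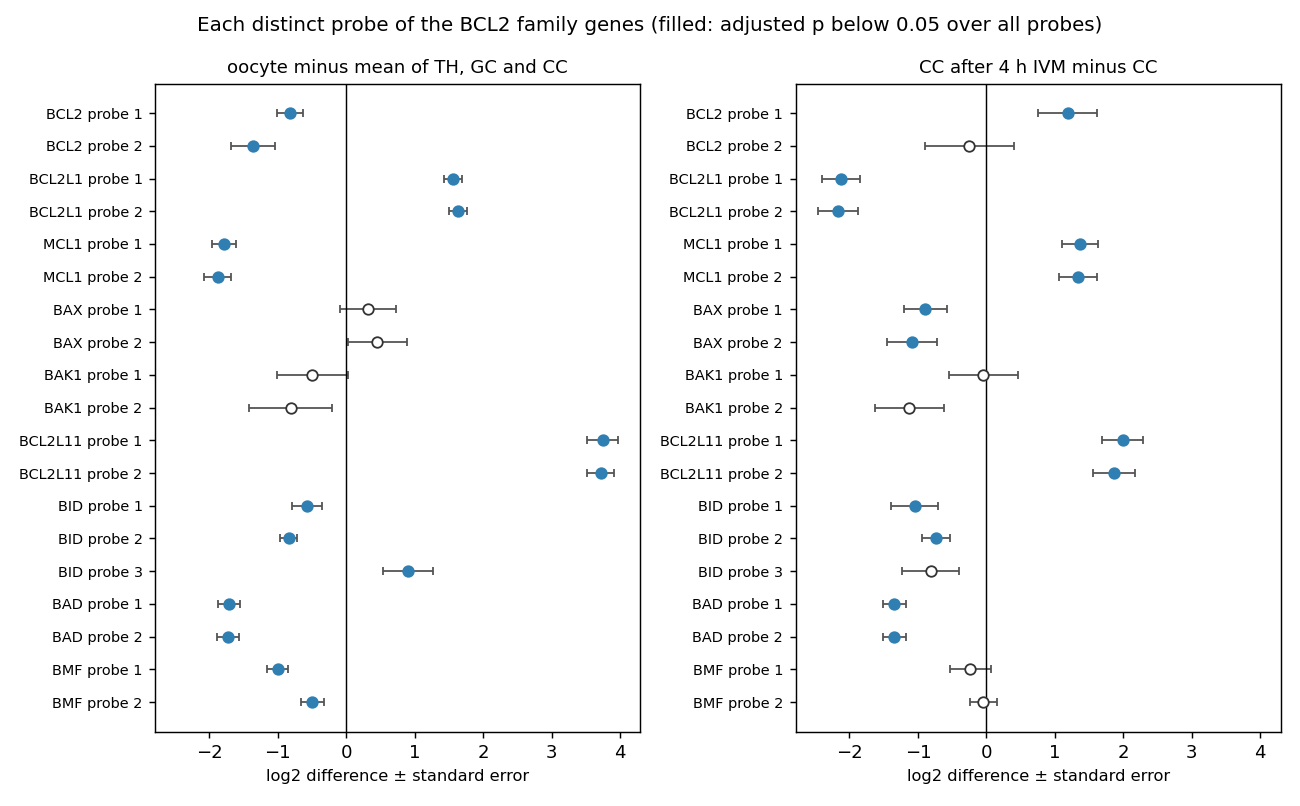
Log2 difference ± standard error of each of the 19 distinct probes, in the oocyte against the somatic mean (left) and in CC after 4 h of IVM against CC (right), filled where the adjusted p over all probes was below 0.05. BID probes 1 and 2 lie left of 0 in the oocyte, at -0.57 and -0.84, and BID probe 3 right of it, at 0.91, while the probes of BCL2L1, MCL1, BCL2L11 and BAD lie close together in both panels.

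Other genes of the apoptosis pathway were taken from 6 lists with 49 of 54 genes on the array. In the oocyte 14 of 49 were called higher and 23 lower than the somatic mean by limma, beside 32.9% and 38.3% of all genes, and 12 were not called. The lists were chosen with earlier results of these data known. The median of the 49 was -0.66, beside -0.52 over all genes and -0.05 over those left by the filter on dim genes. Of 10 measured genes of the apoptosome and caspase list 4 were higher and 5 lower, of 8 death receptor genes 1 was higher and 5 lower, and of 10 other BCL2 family genes 2 were higher and 4 lower. Of 8 genes of inhibitors of apoptosis and their antagonists 2 were higher and 3 lower, of 5 genes of mitochondrial release 2 and 3, and of 8 regulators of the family 3 and 3.

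The largest rises in the oocyte were in BCL2L14, a BCL2 relative, by 7.17 (SE 0.29), PIM1, a kinase that phosphorylates BAD, by 4.22 (SE 0.35), and the executioner caspase CASP6, by 3.94 (SE 0.13). BCL2L14 was at 0.50 ± 0.27 in the oocyte and at -5.90 ± 0.53, -6.87 ± 0.52 and -7.22 ± 0.74 in TH, GC and CC (SD, n = 4), near background there. PIM1 was well above background on 1 of 4 arrays in each somatic group, where its size rests on values near background. CASP6 was at 3.94 ± 0.07 in the oocyte and between -0.53 and 0.50 in the somatic means. The largest falls were in TNFRSF1A, the TNF receptor with a death domain, at -6.86 (SE 0.25), the mitochondrial nuclease ENDOG, at -5.33 (SE 0.14), and BOK, a relative of the effectors, at -4.47 (SE 0.39). ENDOG was at -1.15 ± 0.13 in the oocyte and at 3.43 to 4.69 in the somatic means. TNFRSF1A and BOK, at means of -6.16 and -6.58 in the oocyte, were each well above background on 3 of 4 arrays there. The size of their falls rests on values near background. These 6 genes were chosen among called genes whose oocyte and somatic arrays did not overlap. Their calls held in all 29 alternatives. Normexp with an offset, followed by quantile normalization, moved BCL2L14 to 3.86, PIM1 to 1.82, TNFRSF1A to -3.82 and BOK to -2.35.

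After IVM 9 of the 49 were called higher and 9 lower in CC by limma, beside 30.3% and 15.6% of all genes, and 31 were not called. The median of the 49 was 0.02, beside 0.37 over all genes and 0.14 over those left by the filter on dim genes. The lists gave 3 higher and 2 lower of 10 genes of the apoptosome and caspases, 2 and 1 of 10 other BCL2 family genes, 1 and 1 of 8 inhibitors and antagonists, 3 and 2 of 8 regulators, and no gene higher but 2 lower of 8 death receptor genes and 1 lower of 5 genes of mitochondrial release. BCL2A1, a restraining BCL2 relative, rose by 5.37 (SE 0.98, adjusted p = 0.00255), from -6.76 ± 1.72 to -1.39 ± 1.76 (SD, n = 4). It was well above background on 1 of 4 CC arrays, and the rise was 2.34 with normexp and quantile normalization and 2.56 with the deposited log2 table. BIRC2, an inhibitor of apoptosis protein, rose by 3.21 (SE 0.18, adjusted p = 4.10e-06) from -0.70 ± 0.07 to 2.51 ± 0.18, and CYCS, cytochrome c, rose by 2.35 (SE 0.18, adjusted p = 1.82e-05). The largest falls were in the transcription factor JUN, at -3.40 (SE 0.33), in the caspase-activated nuclease DFFB, at -1.92 (SE 0.25), and in the restraining gene BCL2L2, at -1.59 (SE 0.19, adjusted p = 0.000193). JUN was at 5.54 ± 0.46 before and 2.14 ± 0.57 after IVM. Of the remaining BCL2 family genes, BCL2L15 rose by 1.15 (adjusted p = 0.00777). The BCL2L15 call was lost with normexp and quantile normalization (0.19, adjusted p = 0.140), on its brightest probe (adjusted p = 0.111) and with the CC arrays of slide 2 alone (adjusted p = 0.0797).

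**Figure D4:**
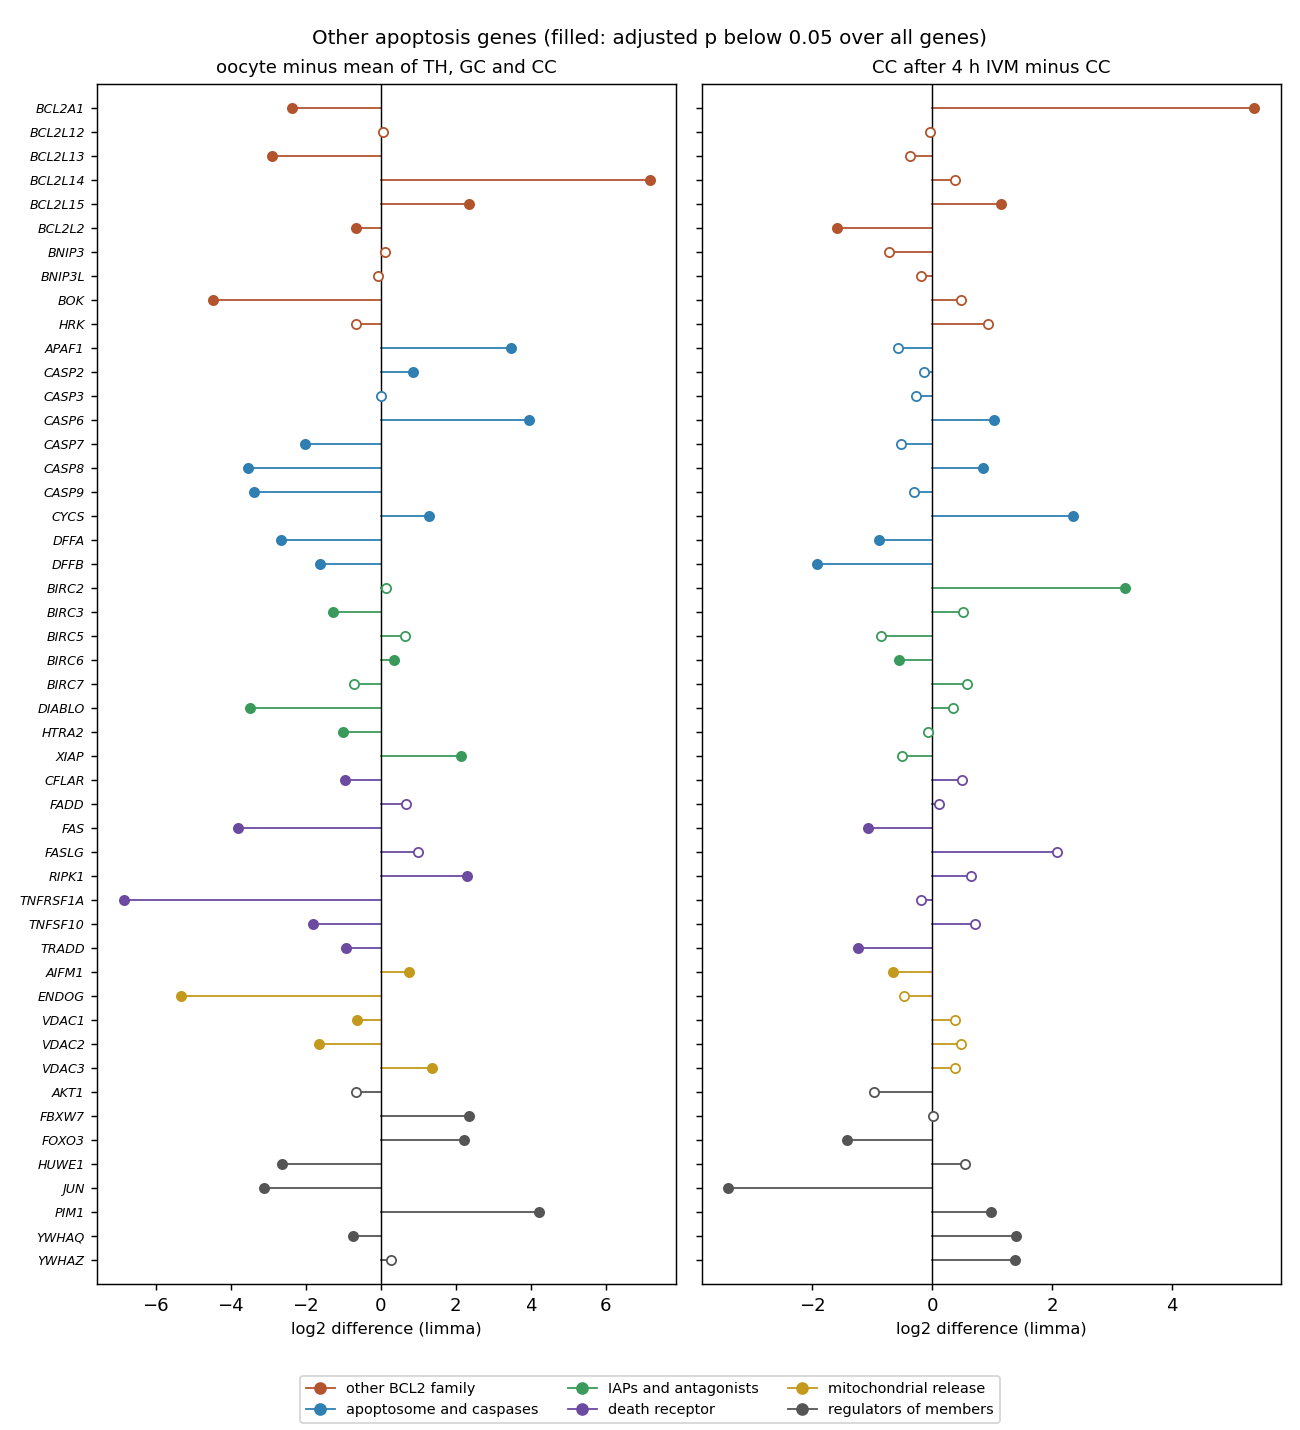
Log2 differences from limma of 49 other apoptosis genes, coloured by list, in the oocyte against the somatic mean (left) and in CC after 4 h of IVM against CC (right), filled where the adjusted p over all genes was below 0.05. In the oocyte 37 of 49 points are filled, from TNFRSF1A at -6.86 to BCL2L14 at 7.17, and after IVM 18 are filled, from JUN at -3.40 to BCL2A1 at 5.37.

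Patterns most like those of an effector and a BH3-only gene were sought over the 20 arrays among 14354 named genes. For BAX the highest Pearson correlations were with ANKRD54 (0.90), ZNF768 (0.89) and PUF60 (0.87), and for BMF with GUCA1B (0.94), OTP (0.93) and SLC22A6 (0.92). The genes most like BMF were, as BMF was, lowest in the oocyte, which a choice by correlation favours. SLC22A6 was at -2.86 in the oocyte and between -0.94 and -0.51 in the other groups. These values are descriptions over arrays that share groups and slides.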

How the data were processed

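Gene expression was measured on 20 one-colour Agilent arrays of bovine TH, GC, CC, oocytes, and CC after IVM. Per the labels, Cy3 cRNA was made from 200 ng of total RNA, and the submitters' processing notes name Feature Extraction 10.7.3.1. The authors deposited per-spot intensity (mean, median, background and processed signal) and marks for signal above background, saturation, and outliers. They also deposited a table of log2 values, which equals log2 of the median pixel signal minus the array median, within 5e-09, with background not subtracted.

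The 10 genes, the pathway lists, and the tests were chosen with earlier results of these data known, and 1 gene of the pathway lists is not reported here. Groups were taken from the sample titles. After removal of control and outlier spots, log2 processed signals were centred per array on their 75th percentile and summarised per gene by the median of its spots. All 22562 genes were tested in limma (version 3.58.1; lmFit, eBayes; R 4.3.3 with data.table, version 1.17.8). Benjamini–Hochberg adjustment ran over all genes, with a threshold of 0.05. The cell types were fitted on 16 arrays and IVM on 8. Limma replaced the methods' analysis of variance, which was run as an alternative. Of 61325 spots, 39782 carried a gene name known to RefSeq, 3934 were named by accession through the RefSeq table, 8648 kept another name of the files, and 8961 a transcript name. Other named genes followed a rule: the 3 largest rises and falls of the lists in each comparison among called genes without overlap, and called genes of the BCL2 family list after IVM. The fits were tested on simulated data. Tables were prepared with pandas 2.3.3 and numpy 2.4.6 (Python 3.11.15), and matplotlib 3.10.9 drew the figures.

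TH and GC were the only pair of groups in which the deviations of same-numbered arrays all correlated above 0.1 (0.13 to 0.37), and a fit with the replicate number as a block changed no TH to GC call of the 9 genes. Replicates of a group correlated at 0.961 to 0.994 over all genes. The 37 alternative settings covered scaling, background, summary, filter, slide, pairing, and left-out arrays, of which the random slide block, the single-slide CC sets, and the fit by probe were chosen after seeing the data. The number of arrays limits the precision.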

Additional observations from a re-analysis of the deposited data

Results flagged for a closer look

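In 45 groups of 4 arrays (9 genes in 5 groups), 2 arrays stood apart from the rest of their group by Dixon's ratio at the 95% level, where chance flags about 1 group in 20. BCL2 in GC replicate 1 was at -3.40, below the other GC arrays at -2.68 to -2.54. BAK1 in CC after IVM replicate 3 was at -4.79, above the others at -5.93 to -6.01, and it was the only array of that group on which BAK1 was well above background.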

How the results depend on the processing

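Of 1030 values recomputed under the 37 alternative settings, 977 kept their direction and their side of the threshold, or stayed within 1.5 times as counts. For the changes below, the cause was not tested unless a clause names it. The calls of BCL2L11, BCL2L1, MCL1 and BAD held in all 29 settings of the oocyte comparison and all 21 of the IVM comparison. Genes called lower in the oocyte numbered 2 within slide 1 in place of 4. Genes called lower after IVM numbered 2 in place of 4 with all 20 arrays in 1 fit and with the CC arrays of slide 1 or slide 2 alone, and 2 to 4 with 1 array left out. Pathway genes called higher in the oocyte numbered 22 in place of 14 with the deposited log2 table. After IVM that table gave 16 higher and 17 lower pathway genes in place of 9 and 9, the random slide block (correlation -0.26) gave 21 higher, and the CC arrays of slide 2 alone, with fewer samples, gave 5 higher and 5 lower. BID in the oocyte changed sign from 0.10 to -0.095 with the percentile over detected probes, -0.024 with normexp and quantile normalization, -0.17 with the mean over probes, -0.84 on the brightest probe (adjusted p = 1.10e-05), -0.15 within slide 2 and -0.078 without oocyte replicate 1, and with 1 array left out it ran from -0.078 to 0.22. BCL2 after IVM changed sign to -0.25 on the brightest probe, and in the oocyte BAK1 changed to 0.27 within slide 1 and BAX to -0.086 within slide 2. The replicate block gave 28 in place of 27 called gene by pair tests (MCL1 between TH and CC, adjusted p = 0.0494) and 3 in place of 4 genes lower after IVM, with BID lost, and changed no other call of the 9 genes. For CC and CC after IVM the same-numbered correlations ran from -0.18 to -0.02 and showed no pairing. They cannot exclude it, as the groups had 4 arrays each on separate slides. A fixed slide block could not be fitted for IVM. Of the 27 called gene by pair tests, 17 kept their call in every setting and none changed sign. BAK1, BAX after IVM and BCL2 in CC lie near background, which limits what these arrays can show of them.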
